A study of Brassica napus with 12 samples.

Results

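The 200 genes described here are those whose root transcript levels differed most between replicate libraries of the same treatment in Brassica napus (oilseed rape). They were chosen from 52962 gene identifiers by measured values. Counts of the sense strand were scaled to the summed gene counts of the library (CPM). A gene had to average at least 5 CPM over the 6 root libraries, with its lowest root CPM above 1/30 of its highest, and 31100 genes did. Those 31100 were ranked by within-group variance, the mean of the variance among the 3 Si root libraries and the variance among the 3 no-Si root libraries on the log2(CPM + 1) scale, and the top 200 were taken. Root variances, orders and deviations of the members are therefore a description of the values that chose them, and no test was made on them.

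Brassica napus is an allotetraploid: it carries an A subgenome derived from Brassica rapa and a C subgenome derived from Brassica oleracea, so most genes exist as near-identical A and C copies. Silicon is taken up by roots as silicic acid and is classed as a beneficial element, and brassicas accumulate little of it compared with grasses. Within-group variance measures how far replicate samples of 1 treatment lie apart, and read counts add a sampling error to it that shrinks as counts grow. The identifiers name the subgenome and chromosome of a gene (BnaC02g42920D is a C02 gene, and Cnn is the C subgenome without a chromosome) but no product or function, so no role is given for any member. Reads of near-identical copies may have been lost or assigned to the wrong copy, and a level of 1 copy is uncertain to that extent.

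Wild-type plants of the variety Citizzen, grown in nutrient solution, received 1.7 mM Si as sodium metasilicate (Si) or 3.4 mM NaCl as the control matched for sodium (no Si) for 1 week, starting when the fourth leaf emerged. Chloride was added for the control plants only, so lack of Si and added chloride cannot be told apart. There were 3 libraries in each of the groups root Si, root no Si, leaf Si and leaf no Si, and the number of plants behind a library is not stated. P-values below measure only the spread between these libraries. The labels give 21 March as planting date for the root Si libraries and leaf Si replicates 1 and 2, and 12 February for all no-Si libraries and leaf Si replicate 3, so in roots the labelled date and Si cannot be told apart. Harvest is given as 28 March for all libraries. The growth described before the Si supply is longer than the days left after 21 March, so the labels contradict each other there. Whether plant age differed between the groups cannot be told from these dates. Gene totals ran from 15616881 to 19330076 counts in root libraries and from 14429867 to 21792206 in leaf libraries. From the data, 293 leaf-limited genes were chosen by a leaf mean of at least 100 CPM and a root median under 1 CPM. They summed to 64.6 to 337.4 CPM in root libraries and to 80120 to 95550 CPM in leaf libraries. That contrast follows from the choice and is no check of the organs.

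Within-group variances of the 200 members ran from 0.44 to 3.08 with a median of 0.71, against a median of 0.024 over all 31100 genes that passed the CPM limits. The last members inside the threshold were BnaCnng19740D (0.4461), BnaA02g03020D (0.4444) and BnaA05g36920D (0.4405), and the first genes outside it were BnaC09g04640D (0.4395), BnaC08g20250D (0.4388) and BnaA10g01170D (0.4383). The threshold thus lay within a continuous range of variances. In such bulk samples fewer cells of a type and less RNA per cell cannot be told apart. Root levels of the members ran from 5.11 to 465.4 CPM on average, with a median of 17.7 CPM. The smallest root count of a member had a median of 86 reads over the members and was never under 7. The variance that read counting alone would give was 1.08% of the observed variance for the median member and 4.04% at most.

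Most of the spread lay among the no-Si roots. The median member had a variance of 0.33 among Si roots and of 1.08 among no-Si roots. The no-Si variance was the larger one for 175 of 200 members (87.5%), against 61.3% of all genes that passed the limits. The highest Si library stood 2.26-fold above the lowest for the median member, and the highest no-Si library stood 4.71-fold above the lowest. A range over 4-fold was found in the Si roots for 25 members and in the no-Si roots for 125. Across the 6 root libraries, the one furthest from its group mean was a Si library for 25 members (9 for replicate 1, 8 for replicate 2 and 8 for replicate 3). It was no-Si replicate 1 for 58 members, no-Si replicate 2 for 71 and no-Si replicate 3 for 46. Replicate 1 of the no-Si roots then lay above its group mean in 55 of its 58 cases, replicate 2 lay below in 64 of 71 and replicate 3 lay below in 42 of 46.

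The order of the 3 no-Si root libraries sorted the members into 4 sets, which were defined after the values were seen. In the set called 1-high/3-low, replicate 1 was highest and replicate 3 lowest (88 members). In the set called 2-low, replicate 2 was the lowest (82 members), and in the set called 2-high it was the highest (26 members). The remaining 4 members, with replicate 3 highest and replicate 1 lowest, form the set called 3-high/1-low. The 1-high/3-low order was thus found in 44% of members, against 14.9% of all genes that passed the limits (4626). All such genes included 9829 with the 2-low order (31.6%) and 9259 with the 2-high order (29.8%). The 3-high/1-low order was found in 7386 of them (23.75%), against 2% of members.

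**Figure D1:**
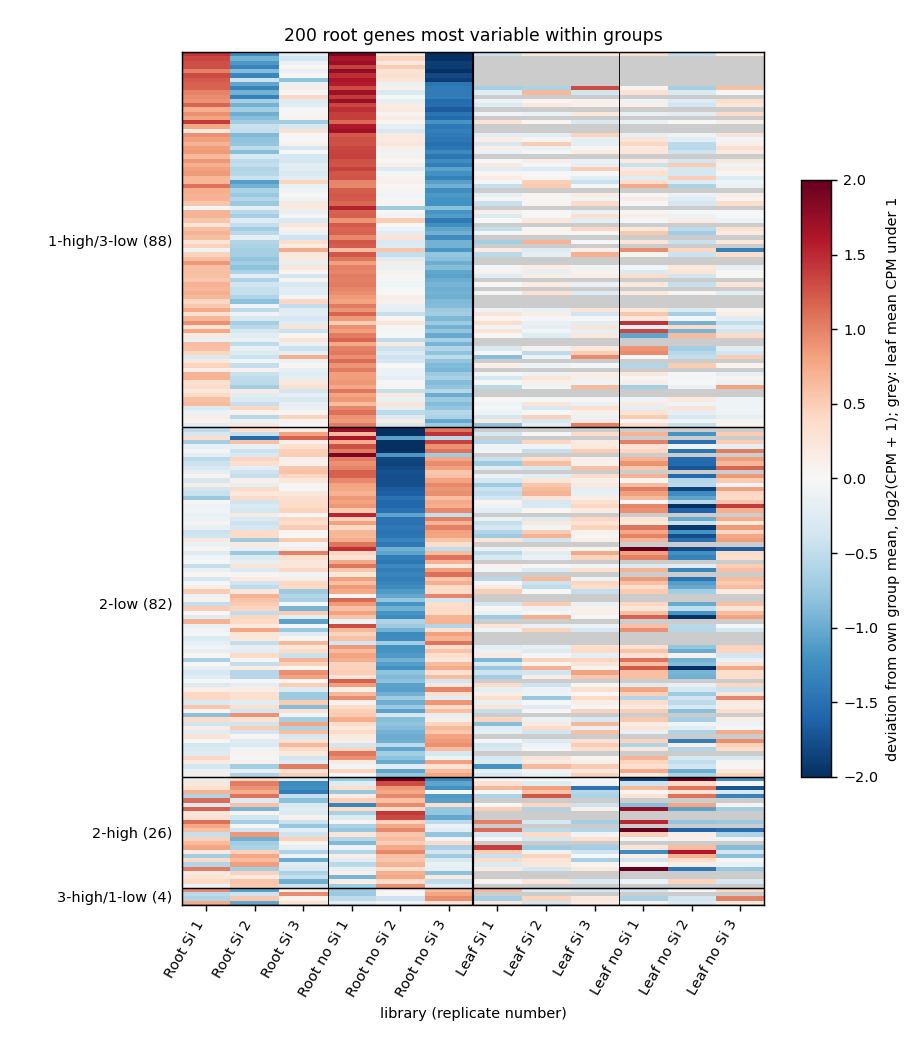
Deviation of each of the 200 members (rows, grouped by set) from the mean of its own group on the log2(CPM + 1) scale, in the root libraries and in the leaf libraries, with Si left of no Si in each organ. Root no-Si replicates 1 and 3 carry opposite colours in the 1-high/3-low rows, and replicate 2 stands apart in the 2-low rows in root and leaf.

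In the 1-high/3-low set the 3 no-Si roots formed a graded order, as the definition of the set requires. The median deviations from the group mean were 0.66, −0.55 and −0.12 (log2 units) in Si replicates 1, 2 and 3, and 1.15, 0.00 and −1.03 in no-Si replicates 1, 2 and 3. BnaC03g49100D, the member with the second highest variance, had 17.6, 1.84 and 4.98 CPM in Si roots, against 52.9, 15.5 and 2.497 CPM in no-Si roots. Its highest Si library exceeded its lowest no-Si library, and the groups overlapped. BnaA07g25000D had 9.00, 1.06 and 2.04 CPM in Si roots, against 26.4, 11.1 and 1.09 CPM in no-Si roots. BnaA06g25530D had 35.6, 5.80 and 12.7 CPM in Si roots, against 107.8, 36.6 and 8.07 CPM in no-Si roots. In all 3 genes replicate 1 was the highest library of each group, and the lowest were Si replicate 2 and no-Si replicate 3. The order Si replicate 1 over 3 over 2 was shown by 61 of the 88 (69.3%), against 676 of the 4626 genes with the same no-Si order (14.6%).

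Other members of this set, which share the no-Si order by definition, repeated the Si order at other levels. BnaA10g13660D stood at 27.6, 3.62 and 10.97 CPM in Si roots, against 53.1, 29.4 and 4.67 CPM in no-Si roots. BnaC06g26730D stood at 13.04, 2.84 and 5.33 CPM in Si roots, against 48.4, 16.3 and 2.56 CPM in no-Si roots. BnaC03g48090D stood at 14.3, 1.504 and 5.15 CPM in Si roots, against 33.5, 14.6 and 2.56 CPM in no-Si roots. The next gene, BnaA05g34670D, differed in that its Si replicates 2 and 3 were close. Its values were 23.5, 6.80 and 5.03 CPM in Si roots, against 70.2, 26.3 and 5.19 CPM in no-Si roots. BnaA07g03790D, chosen after its values were seen, had 134, 33.9 and 64.4 CPM in Si roots, against 510.6, 128.4 and 59.0 CPM in no-Si roots.

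The 5 members with the highest mean root CPM all belonged to the 1-high/3-low set. BnaC06g37860D, the highest, had 491.9, 229.7 and 264.3 CPM in Si roots, against 1126, 497.4 and 182.9 CPM in no-Si roots. BnaA07g33310D followed it closely, with 458.7, 197.4 and 238.7 CPM in Si roots, against 1060, 480.5 and 169.4 CPM in no-Si roots. Whether these are copies of 1 gene that share reads was not tested. BnaCnng67880D had 272, 79.5 and 234.2 CPM in Si roots, against 581.1, 316.1 and 137 CPM in no-Si roots. BnaA08g23780D had 201.6, 84.3 and 134.6 CPM in Si roots, against 446.3, 237.7 and 110.7 CPM in no-Si roots. BnaC08g16730D had 192.5, 81.7 and 107.9 CPM in Si roots, against 461.8, 203.5 and 88.7 CPM in no-Si roots. With at least 2856 reads in every root library for BnaC06g37860D, read counting adds little to such a range.

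**Figure D2:**
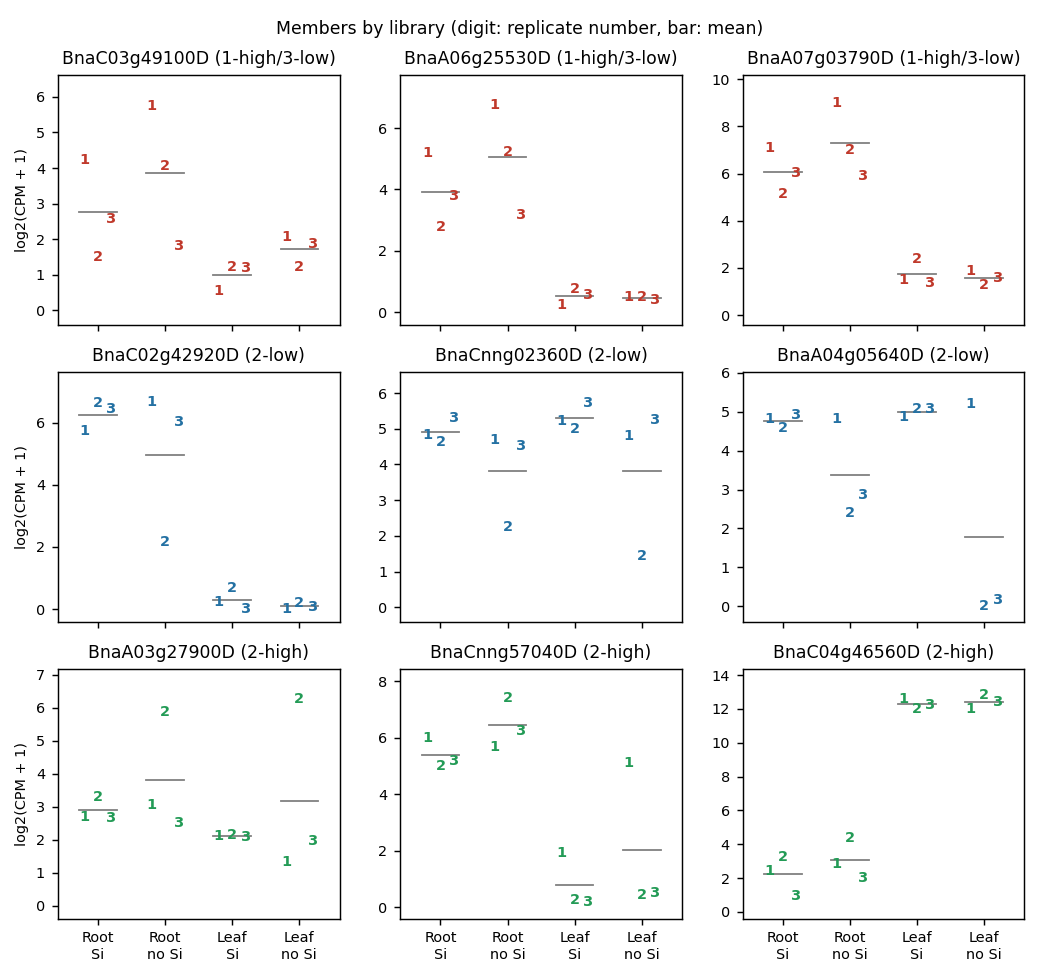
Levels of 9 members in each root and leaf library as log2(CPM + 1), with Si left of no Si and points marked by replicate number. BnaC03g49100D, BnaA06g25530D and BnaA07g03790D show the graded order of the 1-high/3-low set in roots, and BnaCnng02360D and BnaA04g05640D show low no-Si replicates in root and leaf.

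Transcripts much lower in leaves than in roots made up more of the members than of all genes that passed the limits. The leaf mean was under 1 CPM for 58 of 200 members (29%), against 7.46% of all such genes, and the root mean exceeded 10 times the leaf mean for 71 (35.5%), against 10.4%. By set, the leaf mean was under 1 CPM for 35.2% of the 1-high/3-low set, 22.0% of the 2-low set and 30.8% of the 2-high set. The root mean exceeded 10 times the leaf mean for 45.5%, 26.8% and 30.8% of these sets in the same sequence, and the differences between sets were not tested. Among the 57 members of the 1-high/3-low set with a leaf mean of at least 1 CPM, the median leaf deviations did not show the graded order, although replicate 1 was the highest no-Si leaf for 30 (52.6%), against 29.8% of the genes with the same root order. The median deviations were −0.06, 0.01 and 0.08 in Si leaves and 0.17, −0.25 and 0.05 in no-Si leaves. BnaA08g23780D, one of those that did not follow its roots, had 39.9, 33.4 and 39.5 CPM in Si leaves, against 34.9, 51.6 and 43.7 CPM in no-Si leaves, so that its lowest no-Si leaf carried the number of its highest no-Si root. BnaC08g16730D had 43.6, 40.4 and 36.7 CPM in Si leaves, against 52.5, 49.6 and 50.2 CPM in no-Si leaves.

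In the 2-low set the no-Si root variance was the larger one for 77 of 82 members, and replicate 2 had the furthest median deviation. Median deviations were −0.13, −0.07 and 0.24 in Si roots and 0.68, −1.17 and 0.63 in no-Si roots. BnaC02g42920D, the member with the highest variance of all, had 52.4, 97.4 and 85.0 CPM in Si roots, against 101.1, 3.48 and 64.3 CPM in no-Si roots. The low library held 55 reads of it, and the other no-Si libraries held 1836 and 1004. BnaCnng01590D had 15.6, 14.3 and 35.7 CPM in Si roots, against 15.9, 1.46 and 28.1 CPM in no-Si roots. BnaA06g30740D did not follow this form. It had 27.7, 6.74 and 49.9 CPM in Si roots, against 130.1, 19.4 and 28.1 CPM in no-Si roots, with a variance of 1.94 among Si roots and 2.03 among no-Si roots.

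Low values in no-Si leaf replicate 2 were frequent among the 2-low members and among the 1-high/3-low members. Of the 2-low members, 64 had a leaf mean of at least 1 CPM, and 56 of these were lowest in no-Si replicate 2 among the no-Si leaves (87.5%), against 54.6% of the genes with the 2-low order in roots and 42.6% of all genes that passed the limits. Over all members it was 99 of 142 (69.7%). In the 1-high/3-low set it was 38 of 57 (66.7%), against 27.7% of the genes with the same root order, so this leaf library was low for members of each of these sets. The 2-low median deviations were −0.23, −0.03 and 0.20 in Si leaves and 0.58, −0.95 and 0.43 in no-Si leaves. BnaCnng02360D had 27.2, 23.8 and 38.3 CPM in Si roots, against 24.7, 3.73 and 22.0 CPM in no-Si roots. In leaves it had 36.0, 31.1 and 52.0 CPM with Si, against 26.9, 1.73 and 36.6 CPM without Si. No-Si replicate 2 was the lowest of the 6 libraries in each organ, and Si replicate 3 the highest. The leaf library of no-Si replicate 2 was also the smallest of the 12, with 14429867 gene counts, and had the largest share of unmapped reads (15.6%, against 5.36% to 6.23% in the other leaf libraries). The part of these library measures in the result was not tested.

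BnaA04g05640D, a 2-low member, had the highest leaf variance of the members with a leaf mean of at least 5 CPM. It had 27.2, 22.9 and 29.2 CPM in Si roots, against 27.3, 4.30 and 6.28 CPM in no-Si roots. In leaves it had 28.2, 32.8 and 32.4 CPM with Si (488, 699 and 659 reads), against 36.1, 0 and 0.11 CPM without Si (787, 0 and 2 reads). No-Si replicates 2 and 3 were thus low in root and almost without reads in leaf, and no-Si replicate 1 stood with the Si libraries in each organ.

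**Figure D3:**
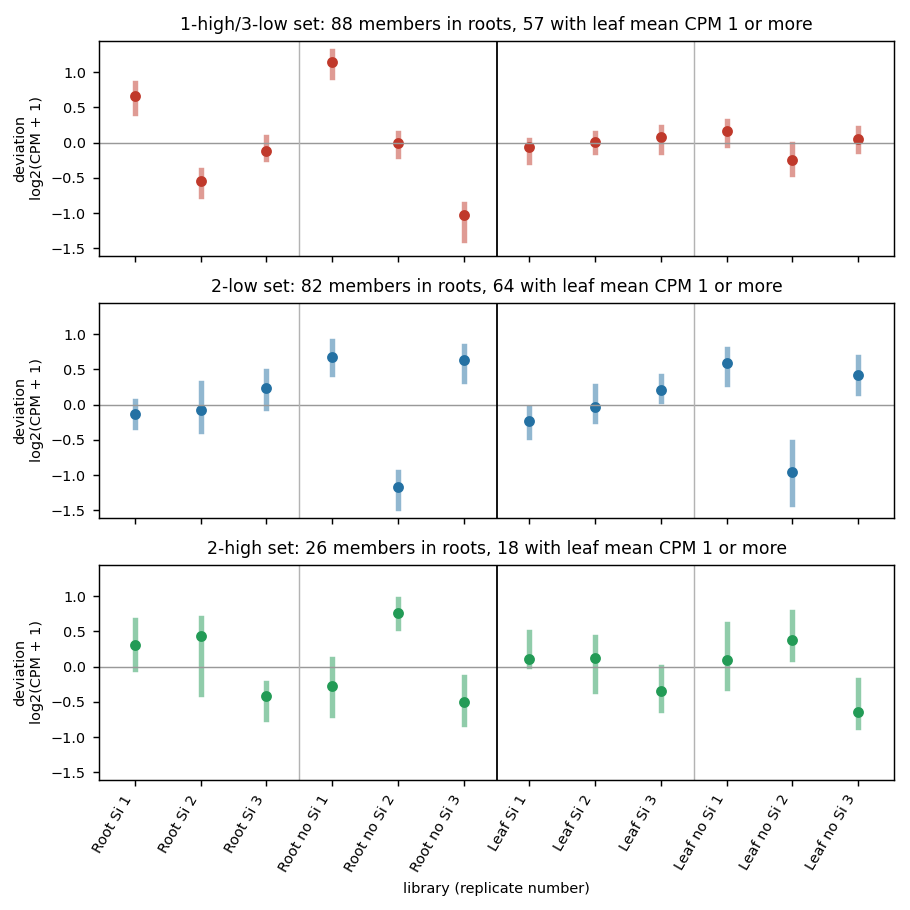
Median deviation from the group mean (log2 CPM + 1 units) of each set in every root and leaf library, with Si left of no Si. No-Si replicates 1 and 3 stand at 1.15 and −1.03 for the 1-high/3-low set in roots, and the same set stays between −0.25 and 0.17 in leaves.

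The 2-high set had median deviations of 0.30, 0.43 and −0.41 in Si roots and −0.27, 0.75 and −0.51 in no-Si roots. BnaA03g27900D had 5.48, 8.80 and 5.33 CPM in Si roots, against 7.21, 57.4 and 4.67 CPM in no-Si roots. Its leaf values were 3.35, 3.43 and 3.25 CPM with Si, against 1.51, 75.8 and 2.85 CPM without Si. A single number, no-Si replicate 2, thus stood apart in root and leaf, and the other libraries stayed within 1.51 to 8.80 CPM. BnaA09g16630D was low in replicate 3 of either treatment. It had 5.28, 8.47 and 1.199 CPM in Si roots, against 6.11, 9.24 and 1.41 CPM in no-Si roots. Its leaf values were 39.0, 43.7 and 8.16 CPM with Si, against 39.3, 52.8 and 6.87 CPM without Si. Of 18 such members with a leaf mean of at least 1 CPM, 13 were highest in no-Si replicate 2 among the no-Si leaves (72.2%), against 41.6% of the genes with the 2-high order in roots.

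In other 2-high members the root and leaf libraries of a number did not match. BnaCnng57040D had 62.7, 30.9 and 35.1 CPM in Si roots, against 50.2, 169 and 74.4 CPM in no-Si roots. In leaves it had 2.77, 0.19 and 0.15 CPM with Si, against 33.7, 0.35 and 0.43 CPM without Si, so that the high leaf library was replicate 1 and the high root library replicate 2. BnaC02g26030D had 1.90, 1.03 and 1.97 CPM in Si leaves, against 23.1, 0.97 and 2.15 CPM in no-Si leaves, again with replicate 1 highest.

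The members furthest from the other libraries of their group included further genes of this set. BnaC09g37940D, furthest above in Si replicate 2, had 4.45, 16.6 and 4.98 CPM in Si roots, against 10.9, 19.6 and 3.84 CPM in no-Si roots. Its leaf values were 5.02, 20.7 and 4.97 CPM with Si, against 19.5, 35.5 and 5.80 CPM without Si, in the same order as in roots apart from the close Si replicates 1 and 3. BnaC04g33760D, furthest below in Si replicate 3, had 9.00, 9.31 and 1.38 CPM in Si roots, against 2.20, 8.22 and 4.35 CPM in no-Si roots. BnaC03g55140D, furthest below in no-Si replicate 1, had 4.55, 9.25 and 4.56 CPM in Si roots, against 0.88, 7.97 and 4.93 CPM in no-Si roots. Its no-Si leaf values were also lowest in replicate 1, with 2.88, 4.22 and 1.87 CPM in Si leaves, against 0.73, 4.44 and 2.26 CPM in no-Si leaves. The lowest Si library of BnaC06g35810D, a 2-low member, was replicate 1, with 4.35, 16.8 and 8.21 CPM in Si roots, against 22.4, 12.0 and 13.4 CPM in no-Si roots.

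BnaC04g46560D, chosen after its values were seen, was a leaf transcript that entered through a low and uneven root level. Its leaf mean was 5291 CPM and its root mean 7.10 CPM. It had 4.45, 8.53 and 0.96 CPM in Si roots, against 6.06, 19.6 and 3.01 CPM in no-Si roots. The summed CPM of the 293 leaf-limited genes was 124.9, 204.5 and 64.6 in Si roots and 142, 337.4 and 125.1 in no-Si roots, with the same libraries highest and lowest within each group. A leaf mean above 10 times the root mean was found for 5 members (2.5%), against 0.99% of the genes that passed the limits. Of these 5, only BnaC04g46560D matched the sums in both groups. Among no-Si roots BnaA02g15140D and BnaA05g24870D were highest in replicate 1, and BnaA01g04650D in replicate 3. BnaA05g24730D was highest in no-Si replicate 2, as the sums were, but lowest in Si replicate 2, where the sums were highest. The part of the leaf-limited transcripts in the result was not tested.

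The 4 members of the 3-high/1-low set shared no single form. BnaC09g13810D, named after its values were seen, had 18.3, 20.0 and 52.5 CPM in Si roots, against 12.4, 20.9 and 37.8 CPM in no-Si roots, with replicate 3 highest in each treatment. BnaC07g13500D, named likewise, had 12.0, 2.12 and 6.23 CPM in Si roots, against 2.26, 4.75 and 7.36 CPM in no-Si roots, where replicate 1 was highest with Si and lowest without.

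Leaf variance was not used in the choice of members. Among 96 members with a leaf mean of at least 5 CPM the median within-group leaf variance was 0.28, against 0.040 over the 22258 genes that passed the root limits and the same leaf minimum. The most variable 5% of leaf genes held 47 of the 96 (49.0%), against 3.95% of those 22258. The sets differed in this. The median leaf variance was 0.092 for 40 members of the 1-high/3-low set, 0.48 for 42 of the 2-low set and 1.09 for 12 of the 2-high set. Without leaf no-Si replicate 2 the median over members was 0.11 and the number among the top 5% was 27 of 100, and the median over all leaf genes was then 0.037.

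**Figure D4:**
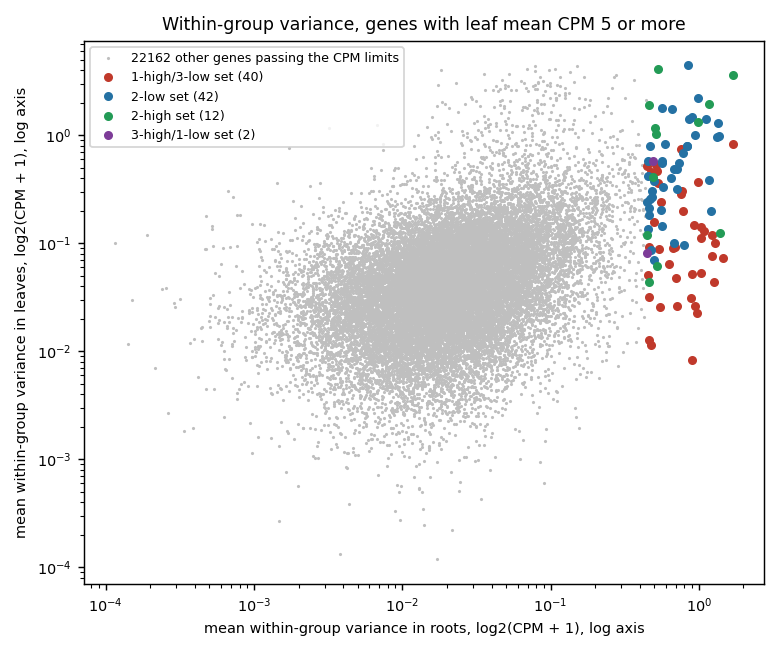
Within-group variance of log2(CPM + 1) in roots and in leaves (log axes) for members with a leaf mean of at least 5 CPM, coloured by set, over all other genes that passed the limits. Members of the 2-low and 2-high sets extend to high leaf variances, and those of the 1-high/3-low set have a median leaf variance of 0.092.

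Root and leaf deviations were also set side by side across the 96 members. Genes are not independent replicates, so r is given without p, and the points of a library share its scaling. Where a root library was set against the leaf library that shared its treatment and number, Pearson's r across members was 0.45, 0.46 and 0.66 for Si replicates 1, 2 and 3, and 0.057, 0.77 and 0.49 for no-Si replicates 1, 2 and 3. Over the 22258 genes it was 0.12 to 0.26 with Si and −0.10 to 0.30 without. The rule chose members for wide root deviations, which can raise r, so members and all genes are not compared like for like. Pairs of unequal number gave −0.47 to 0.018 with Si and −0.66 to 0.31 without across the members. The deviations of a gene cancel out within a group. Unequal pairs therefore tend to fall where equal ones rise, and they are no separate evidence. In no-Si replicate 1, which stood highest in roots for the 1-high/3-low set, r was the lowest of the 6, and within that set it was −0.027. Within the same set r was also −0.024 for no-Si replicate 3 and −0.019 for Si replicate 2. It was 0.16 and 0.42 for Si replicates 1 and 3, and 0.50 for no-Si replicate 2. In the 2-low set (42 members) r of equal numbers ran from 0.48 to 0.83 with Si and from 0.42 to 0.67 without. In the 2-high set (12 members) r of equal numbers ran from 0.52 to 0.75 with Si and from 0.086 to 0.65 without. The labels do not say whether a number stands for shared plants, and shifts shared by equal numbers were known from earlier work on these data.

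Members were unevenly spread over the identifiers. C02 held 24 of them (12%), against 3.59% of the genes that passed the limits, and Cnn held 22 (11%), against 5.82%. From BnaC02g42350D to BnaC02g43980D, a span of 93 identifiers, 14 of the 20 genes that passed the limits were members. From BnaCnng01590D to BnaCnng02360D, a span of 53 identifiers, 12 of 24 were. All 26 belonged to the 2-low set, and the low level of no-Si replicate 2 along both stretches was known from earlier work on these data. BnaC02g42350D had 23.0, 41.2 and 32.2 CPM in Si roots, against 26.6, 5.31 and 29.8 CPM in no-Si roots. BnaC02g43980D had 9.21, 15.3 and 9.65 CPM in Si roots, against 10.7, 2.28 and 11.5 CPM in no-Si roots. In the C02 run the median deviation of Si roots was −0.41, 0.37 and 0.070, and in the Cnn run it was −0.14, −0.32 and 0.42, so the Si libraries were ordered differently along each. BnaC02g45110D, beyond the end of the C02 run, had 5.23, 6.74 and 6.17 CPM in Si roots, against 6.00, 1.202 and 7.49 CPM in no-Si roots.

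**Figure D5:**
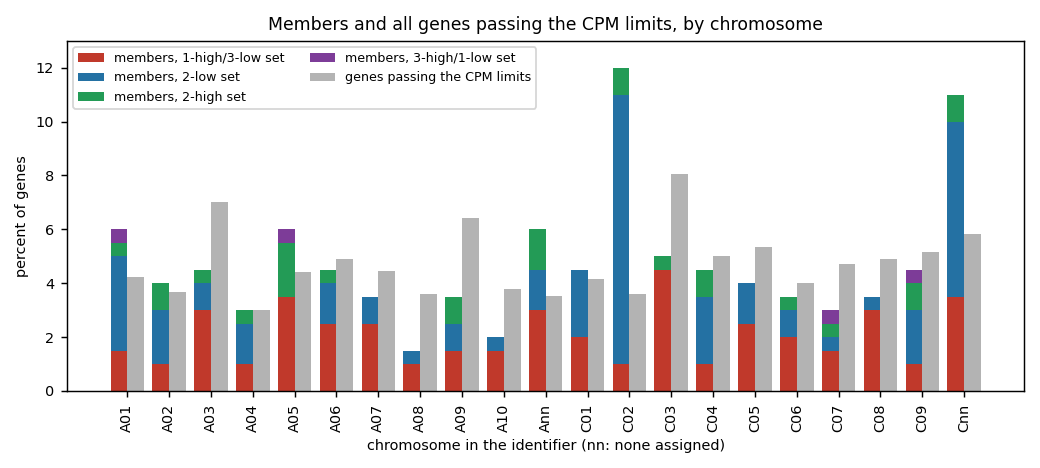
Percent of members (bars stacked by set) and of all genes that passed the CPM limits (grey bars) on each chromosome named in the identifiers. C02 holds 12% of members against 3.59% of the genes that passed, and Cnn 11% against 5.82%.

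Outside those runs 56 members of the 2-low set remained, 28 on each subgenome. Of 41 with a leaf mean of at least 1 CPM, 34 were lowest in no-Si leaf replicate 2 (82.9%). By subgenome, 44 of the 88 members of the 1-high/3-low set carried A identifiers, or 50%, against 51.6% of the genes with the same root order. The A share was 34.1% in the 2-low set (28 of 82), against 43.8% of the genes with that order, and 57.7% in the 2-high set (15 of 26), against 55.1%.

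The Si comparison asked whether members differed between treatments beyond this spread. In roots 0 of 200 members passed an adjusted p of 0.05 by edgeR's quasi-likelihood test with Benjamini-Hochberg adjustment over 42536 genes (percent called over all genes 0.00235), and 0 passed by DESeq2 (1.08 over all genes). An unadjusted p under 0.05 was reached by 4 members (2%), against 8.86% of all genes tested. The within-group variance chosen by the rule enters the denominator of this test. Every Si root was higher than every no-Si root in 3 members (7.49% of all genes) and lower in 3 (5.73% of all genes). The smallest adjusted p of a member was 0.5225 by edgeR, for BnaC02g26030D, and 0.3634 by DESeq2, for BnaA02g12530D. BnaC02g26030D had 16.4, 4.23 and 5.75 CPM in Si roots, against 19.2, 28.3 and 19.2 CPM in no-Si roots (log2 fold change −1.35, SE 0.51). BnaA02g12530D had 6.78, 1.95 and 1.02 CPM in Si roots, against 18.4, 20.1 and 5.51 CPM in no-Si roots (log2 fold change −2.19, SE 0.80; edgeR adjusted p 0.5279). Of members with higher values, BnaA03g31730D had the smallest p, with 10.7, 20.1 and 6.23 CPM in Si roots, against 7.38, 1.77 and 5.57 CPM in no-Si roots (log2 fold change 1.29, SE 0.59; edgeR adjusted p 0.6209). BnaA04g21450D came next, with 24.2, 20.6 and 15.4 CPM in Si roots, against 10.7, 4.11 and 16.8 CPM in no-Si roots (log2 fold change 0.91, SE 0.44; edgeR adjusted p 0.6418).

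The fitted root fold changes differed in sign between the sets, which were defined on the same no-Si root libraries, and are given as a description. The median log2 fold change was −1.02 over the 1-high/3-low set (86 of 88 negative), 0.46 over the 2-low set (72 of 82 positive) and −0.63 over the 2-high set (21 of 26 negative), against 0.0034 over all genes. Without no-Si root replicate 1 the median of the 1-high/3-low set was −0.22, and that of all 200 members was 0.076 in place of −0.44. Without no-Si root replicate 2 the 2-low median was 0.073, and the 2-high median turned to 0.063 (14 of 26 positive). A single member was called by edgeR when 1 root library was left out. BnaA04g05640D had a log2 fold change of 2.31 (SE 0.19, adjusted p 0.0238 by edgeR) without no-Si root replicate 1, against 1.01 (SE 0.71, adjusted p 0.7986 by edgeR) with all 6 root libraries. The root Si libraries had more unmapped reads (8.15%, 8.20% and 9.51%) than the no-Si libraries (6.57%, 7.04% and 6.94%), and the part of this in the comparison was not tested.

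In leaves 150 members had enough reads to be tested. By edgeR 0 passed (0.00731 percent of all 41051 genes tested), and 12 reached an unadjusted p under 0.05 (8%, against 4.09% of all genes). DESeq2 called 1 member (0.105 percent of all genes). This was BnaC08g37940D, which had 14.4, 23.0 and 53.5 CPM in Si leaves, against 7.53, 3.74 and 5.69 CPM in no-Si leaves. The groups did not overlap, and its log2 fold change was 2.38 (SE 0.42, adjusted p 5.85e-05) by DESeq2 and 2.37 (SE 0.49, adjusted p 0.9999) by edgeR. In roots the same gene had 73.3, 96.6 and 83.8 CPM with Si, against 160.6, 61.9 and 46.3 CPM without Si, with overlapping groups. The fitted leaf fold changes were negative for 45 of 61 tested members of the 1-high/3-low set and 16 of 20 of the 2-high set, and positive for 56 of 66 of the 2-low set. These are the same majority signs as in roots. Without no-Si leaf replicate 2, 34 of 67 were positive in the 2-low set and 11 of 21 negative in the 2-high set. In the 1-high/3-low set 42 of 64 were then negative, with a median of −0.26, against 0.0021 over all genes. Every Si leaf was higher than every no-Si leaf in 6 members (6.50% of all genes) and lower in 4 (3.11% of all genes).

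The other members with the smallest leaf p did not pass, each with an edgeR adjusted p of 0.9999. BnaCnng01740D had 18.8, 10.5 and 14.8 CPM in Si leaves, against 5.74, 6.17 and 9.78 CPM in no-Si leaves (log2 fold change 0.98, SE 0.30). BnaC03g31730D had 7.27, 9.90 and 11.01 CPM in Si leaves, against 35.3, 11.4 and 16.1 CPM in no-Si leaves (log2 fold change −1.19, SE 0.37). BnaC01g06430D had 19.7, 14.2 and 18.8 CPM in Si leaves, against 87.9, 61.3 and 17.4 CPM in no-Si leaves (log2 fold change −1.69, SE 0.53). In the last gene no-Si replicate 3 lay among the Si leaves. Without no-Si leaf replicate 1, BnaA04g05640D was called at a fitted log2 value of 8.78 (SE 0.37, adjusted p 0.000215 by edgeR), which rests on leaf libraries of 0 and 2 reads and is no measured fold.

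The difference in the Si response between root and leaf was tested over all 12 libraries. By edgeR 0 of 200 members passed (0 percent of 45222 genes), and 3 reached an unadjusted p under 0.05 (1.5%, against 4.03% of all genes). With a replicate block in the edgeR fit, 24 members reached it (12%, against 4.09% of all genes) and 0 passed. DESeq2 called 0 members (0.0199 percent of all genes). The root spread that chose the members enters the error terms of these tests too. A member without a call therefore says little about a difference between the organs.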

How the data were processed

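Poly(A)-selected, paired-end, stranded libraries from 200 mg of tissue were prepared by a TruSeq protocol, as the labels state. The authors deposited 3 columns of whole-number counts per gene and library, named no_stranded, forward and reverse per the file headers. Per the submitters' processing notes the tools included Bowtie2 and TopHat2, with no role or version. Which build, annotation and counter were used is not given in the sources used here. Unmapped, multimapping, outside and ambiguous reads were left out of totals (5.36% to 15.6%, 7.73% to 9.66%, 6.95% to 14.7% and 0.108% to 0.143%). The reverse column was used as the sense strand, and the forward column held 0.36% to 0.72% of stranded counts.

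Si was tested against no Si within each organ, and the organ by Si interaction over 12 libraries, with edgeR 4.0.16 in R 4.3.3 (TMM factors, filterByExpr, two-sided quasi-likelihood tests, Benjamini-Hochberg adjustment over all genes, threshold 0.05). The fit was tested on simulated counts. DESeq2 1.42.0, other scalings, filters and columns, a replicate block, a planting date term and the removal of each library were alternatives. Deviations are log2(CPM + 1) minus the mean of the library's group. Standard errors of edgeR fold changes came from the F statistic.

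The members, lists and tests were chosen with earlier results of these data known. The named members are the 10 most variable, the 3 on either side of the threshold, the 8 most variable in leaves, the 5 highest in roots, the 2 smallest p in each direction and organ, the member furthest above and below in each root library, and the ends of runs of members within 20 places of each other. The gene lists, markers and promoter motifs planned for named genes could not be used, since the identifiers carry no names. A RefSeq table of the Da-Ae assembly had a symbol equal to the identifier for 10 of 200 members.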

Additional observations from a re-analysis of the deposited data

How the results depend on the processing

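The choice of members depended on the settings. Of 200, 121 were chosen again by the smaller of the 2 variances, 136 at a mean of 10 CPM or more, 149 with 5 CPM added, 156 without the limit on the CPM range and 160 with that limit at 1/10. TMM factors, 0.5 CPM added and either strand kept 190 to 196. With 1 root library left out 111 to 167 were chosen again, lowest without no-Si replicate 2. That library's removal kept all 88 of the 1-high/3-low set and 13 of 82 of the 2-low set. This largely follows from how the sets were defined, with that library in the middle in the first and lowest in the second. The leaf variance median of members ran from 0.1094 to 0.3348 with 1 leaf library left out, and the number among the top 5% from 27 to 50. The lowest values came without leaf no-Si replicate 2. Without the C02 and Cnn runs, an alternative chosen after the data were seen, the median was 0.2069 with 35 of 82 in the top 5%, and 34 members of the 2-low set were lowest in that leaf library.

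For roots, edgeR called 1 gene, DESeq2 461, and 1 to 36 with 1 library left out (36 without no-Si replicate 3), of which 0 to 1 were members. For leaves, edgeR called 3 genes, DESeq2 43, the planting date term 0, and 1 to 7 with 1 library left out, of which 0 to 1 were members. DESeq2 called 1 leaf member, BnaC08g37940D (2.375, adjusted p 5.85e-05). For the interaction edgeR called 0 genes and DESeq2 9. The cause of these differences was not tested. The replicate block gave 1 call in roots, 1 in leaves and 0 in the interaction, with 0 members called. In roots 32 members (16%) then had an unadjusted p under 0.05 by edgeR, against 9.75% of all genes. Without the block it was 4 members (2%), against 8.86%. In leaves it was 21 of 150 members (14%) with the block, against 3.43% of all genes. Without the block it was 12 (8%), against 4.09%. In the interaction it was 24 of 200 members (12%) with the block, against 4.09% of all genes. Without the block it was 3 (1.5%), against 4.03%. By the rule used, the numbers did not pair Si with no-Si samples. Same-numbered deviations correlated at 0.1431, 0.02857 and 0.1764 in roots and −0.06002, −0.222 and 0.3998 in leaves. Not every library correlated best with its own number. This rule was applied within each organ and not between root and leaf.

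With 3 libraries a group, a variance rests on few values, and plants, tissue sampling and library preparation cannot be told apart.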

Other observations

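For a few members a RefSeq gene table gave a second view of where the gene lies. Of 10 members with a matching symbol, 9 had a chromosome both in the identifier and in the Da-Ae table, and for 4 the chromosomes differed (44.4%), against 6.15% of 1138 genes that passed the CPM limits. BnaA02g05360D is listed on C02 in that assembly, BnaA04g21450D on C04, BnaA06g30740D on C07 and BnaC06g21340D on C09. With 9 genes this was noticed in the data and not tested.

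Reads on the strand opposite to a member made up 0.094% of its stranded root counts at the median and 3.41% at most. No member exceeded 10%, against 0.52% of the genes that passed the limits. When the same rule was applied to the leaf libraries, 10 of the 200 root members were chosen again (5%). That rule took 200 leaf genes from those of 26375 with a leaf mean of at least 5 CPM that also met its CPM range limit. Of the root members, 96 had that leaf mean. The range limit also left out BnaA04g05640D, the most variable of these in leaves.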
